A study of Mus musculus with 24 samples.

Results

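The 10 genes described here are immediate early genes (Fos, Fosb, Jun, Junb, Atf3, Egr1, Egr2, Nr4a1, Ier2 and Dusp1), chosen by name from the gene names on the arrays and measured in blood of young and old mice with and without x-ray exposure. They are 10 of 29742 genes with a probe, and each had 1 probe. The study used 24 male C57BL/6J mice, an inbred strain, in 4 groups of 6: young mice (2 months) or old mice (21 months), with 0 Gy or with 4 Gy of x-rays. Blood was drawn by cardiac puncture at euthanasia, 24 h after exposure for the irradiated mice, and RNA of the whole blood of 1 mouse was hybridised to 1 array with a single dye. Values below are log2 signals minus the median of the array, so they compare 1 gene across mice and not the level of 1 gene with another.

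Immediate early genes are switched on within minutes of a stimulus, without new protein synthesis, by transcription factors that are already present and are activated by kinases. Serum response factor with its ETS partners, and CREB, are the best known of these. Fos, Fosb, Jun and Junb encode subunits of the AP-1 transcription factor, Atf3 encodes a related basic leucine zipper factor induced by stress, Egr1 and Egr2 encode zinc finger factors, and Nr4a1 encodes an orphan nuclear receptor that also marks non-classical monocytes. Ier2 encodes a small nuclear protein. Dusp1 encodes a phosphatase that switches off MAP kinases, the kinases that drive much of this response.

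Upstream sequences are shown for 5 members that passed a test in the comparisons below and for Fos, the best known of the class. Each is the 250 bases up to the transcription start, 5′ to 3′ on the strand of the gene. They come from RefSeq on GRCm38.p6, which held 8 of the 10 members (not Egr1 and Ier2). Capitals mark matches on either strand to the cyclic AMP response element TGACGTCA, its first 5 letters TGACG, the CArG box that serum response factor binds, the EGR site (GCGGGGGCG or GCGTGGGCG) and the TATA box TATAAA. The stretch of Jun held none of them.
Fos: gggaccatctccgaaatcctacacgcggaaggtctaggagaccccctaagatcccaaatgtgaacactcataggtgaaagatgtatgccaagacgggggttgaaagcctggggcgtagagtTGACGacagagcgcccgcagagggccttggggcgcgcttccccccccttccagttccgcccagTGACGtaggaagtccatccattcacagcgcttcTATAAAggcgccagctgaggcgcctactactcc
Jun: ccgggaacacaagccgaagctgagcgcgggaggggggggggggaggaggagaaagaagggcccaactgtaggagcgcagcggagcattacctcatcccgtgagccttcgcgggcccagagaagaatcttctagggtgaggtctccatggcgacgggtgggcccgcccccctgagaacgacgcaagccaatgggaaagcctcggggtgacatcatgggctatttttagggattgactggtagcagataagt
Atf3: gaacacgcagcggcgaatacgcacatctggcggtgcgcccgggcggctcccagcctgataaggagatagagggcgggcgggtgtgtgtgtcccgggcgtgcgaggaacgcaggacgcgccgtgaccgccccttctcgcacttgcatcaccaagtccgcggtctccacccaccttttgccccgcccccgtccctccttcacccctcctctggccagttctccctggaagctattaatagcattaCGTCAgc
Egr2 (the third start in the table): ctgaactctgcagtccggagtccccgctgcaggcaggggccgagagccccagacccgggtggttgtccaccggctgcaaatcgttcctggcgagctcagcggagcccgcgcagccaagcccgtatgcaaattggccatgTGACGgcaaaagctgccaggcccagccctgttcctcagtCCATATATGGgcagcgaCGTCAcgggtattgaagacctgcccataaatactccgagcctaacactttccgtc
Nr4a1: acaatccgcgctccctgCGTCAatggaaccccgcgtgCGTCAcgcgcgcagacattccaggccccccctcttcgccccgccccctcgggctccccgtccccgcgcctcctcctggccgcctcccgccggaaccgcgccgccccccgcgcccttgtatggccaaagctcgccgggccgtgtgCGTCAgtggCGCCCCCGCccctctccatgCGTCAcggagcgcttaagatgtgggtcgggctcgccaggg
Dusp1: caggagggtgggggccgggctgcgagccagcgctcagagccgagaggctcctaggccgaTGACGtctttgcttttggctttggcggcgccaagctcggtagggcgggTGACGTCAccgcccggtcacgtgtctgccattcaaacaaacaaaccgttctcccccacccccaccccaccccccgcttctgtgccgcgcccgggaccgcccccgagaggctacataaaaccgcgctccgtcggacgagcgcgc

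The stretches lie at chr12:85473640-85473889 on the plus strand (Fos), chr4:95052223-95052472 on the minus strand (Jun), chr1:191183334-191183583 on the minus strand (Atf3), chr10:67537619-67537868 on the plus strand (Egr2), chr15:101266596-101266845 on the plus strand (Nr4a1) and chr17:26508473-26508722 on the minus strand (Dusp1). The full element TGACGTCA was found upstream of Dusp1, 143 to 136 bases before the start, and in 1.55% of all 32851 upstream stretches of this length in the table. A CArG box was found upstream of Egr2, 72 to 63 bases before the start shown, against 1.47% of all stretches. TGACG alone, which also lies inside the full element, occurred upstream of 7 of the 8 members (all but Jun) when each start of a gene was counted, against 19.8% of the 27025 genes in the table. The EGR site occurred upstream of Fosb and Nr4a1 (3.06% of all stretches), TATAAA upstream of Fos (12.4%), and the AP-1 site TGACTCA or TGAGTCA upstream of 0 of the 8 (4.46%). These matches describe letters in the windows and say nothing of binding in these mice.

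Each member could be measured in nearly every mouse. Signals of Fosb, Jun, Junb, Egr1, Nr4a1 and Dusp1 were well above background on all 24 arrays, those of Fos and Ier2 on 23, and those of Egr2 and Atf3 on 22, and none was saturated. The arrays below background were those of irradiated old mice 4 and 6. All 10 members passed the background filter. Egr1 varied too little to pass the filter on 1.5-fold differences, so 9 members were tested among 17805 genes (limma, two-sided, passing at p under 0.005 with a Benjamini-Hochberg adjusted p under 0.05), and values for Egr1 come from a fit without that filter. Probes lie on mm9 at chr12:86817900-86817959 (Fos), chr7:19888168-19888227 (Fosb), chr4:94716928-94716987 (Jun), chr8:87501881-87501940 (Junb), chr10:67004798-67004857 (Egr2), chr15:101105071-101105130 (Nr4a1), chr1:192994547-192994606 (Atf3) and chr8:87186214-87186273 (Ier2). Their place in exons was not looked up, because no annotation of that build was used here.

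Irradiated old mice 4 and 6 stood apart from the rest. Their median signals (8.66 and 8.84) were the lowest of the 24 arrays, which otherwise ran from 14.4 to 44.8, and spike-in controls lay 7.70 and 7.63 above their medians on the log2 scale, against at most 7.12 elsewhere. They correlated with each other (r = 0.987 across probes) more than with the other 4 irradiated old mice (0.846 to 0.902). Their summed B cell markers were the lowest in the group (5.78 and 5.98, others 6.33 to 9.77) and their T cell markers the highest (10.04 and 10.29, others at most 9.68). Neutrophil markers were also lowest in them (12.43 and 12.68, others 13.3 to 15.0) and platelet markers highest (15.44 and 15.47, others at most 15.15). Monocyte, endothelial, macrophage and hepatocyte sums lay within the range of the others. Hepatocyte markers, which blood should lack, exceeded 11 in 7 mice: unirradiated young mouse 5, irradiated young mice 2, 4 and 5 and irradiated old mice 2, 3 and 5. Results that rest on these arrays are given with and without them. Irradiated young mice 2 and 5, and unirradiated old mice 1 and 6, had very similar arrays. The spread of their log2 differences was 0.133 and 0.136. Repeat spots of 1 array predict up to 0.123, and all other pairs within a group had 0.181 or more. The tests and correlations below count these arrays as separate mice. In whole blood, fewer cells of a type and less RNA per cell cannot be told apart.

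**Figure D1:**
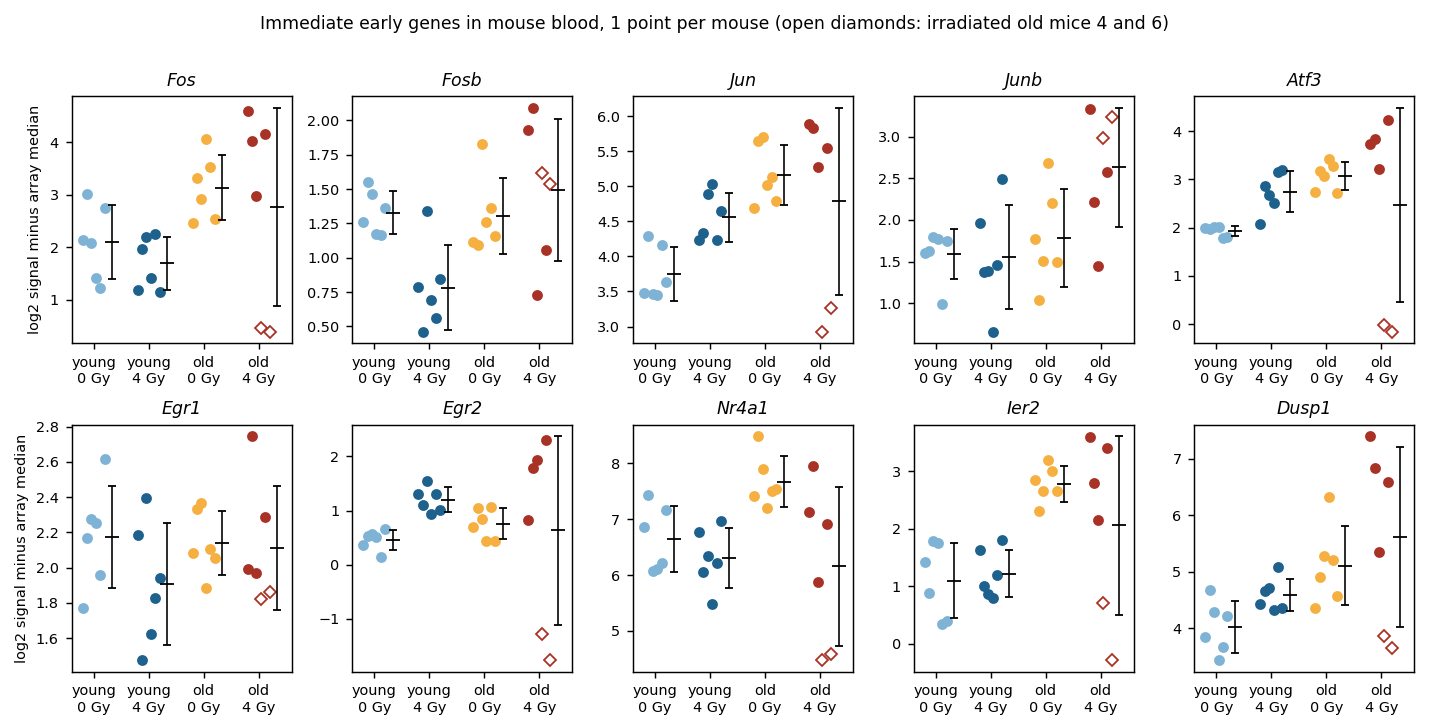
Levels of the 10 members in each of the 24 mice (y axis, log2 signal minus the median of the array), by age and dose, with group means and SD as bars at the right of each group. Open diamonds are irradiated old mice 4 and 6, which lie below the other 4 irradiated old mice for 8 members and among them for Fosb and Junb. The share of all genes with this order was not counted.

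In young mice, the comparison of irradiated with unirradiated blood asks which members differed 1 day after exposure. Atf3, Jun and Egr2 were higher in irradiated young mice by 0.81, 0.81 and 0.74 on the log2 scale (1.76-fold, 1.76-fold and 1.67-fold), and Fosb was lower by 0.55 (1.46-fold). The other 5 members tested, among them Fos and Junb, did not pass the test. Thus 4 of 9 members passed, 3 of them higher, where 35.4% of all genes tested passed (14.3% higher and 21.1% lower). The median log2 difference of the 9 members was 0.12 and that of all genes -0.20.

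Atf3, the stress-induced repressor and activator of the ATF family, ran from 1.78 to 2.02 in unirradiated young mice (median 1.98) and from 2.07 to 3.18 after irradiation (median 2.76). The unirradiated young mice lay close together, all of them below every irradiated young mouse. The difference of 0.81 ± 0.19 (SE, n = 6 and 6) had a limma adjusted p of 0.00334. Egr2, a zinc finger factor needed for T cell anergy and myelination, ran from 0.14 to 0.65 (median 0.52) without exposure and from 0.93 to 1.54 (median 1.20) after it. These groups did not overlap either (difference 0.74 ± 0.15, limma adjusted p = 0.00120). Higher levels without overlap between the groups were found for 2 of 9 members, Atf3 and Egr2, against 9.46% of all genes tested, and lower levels without overlap for 0 of 9, against 15.2% (24.6% in either direction).

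Jun, the AP-1 subunit that pairs with Fos proteins, ran from 3.44 to 4.29 (median 3.55) in unirradiated and from 4.23 to 5.03 (median 4.49) in irradiated young mice. The groups overlapped through unirradiated mouse 2 (4.29), which exceeded irradiated mice 1 and 5 (both 4.23). The difference of 0.81 ± 0.21 had a limma adjusted p of 0.00695. Fosb, a Fos relative, ran from 1.17 to 1.55 (median 1.31) without exposure and from 0.46 to 1.34 (median 0.74) after it. Irradiated mouse 3 (1.34) lay within the unirradiated range and the other 5 irradiated mice below it, with a difference of -0.55 ± 0.16 (limma adjusted p = 0.0134). Dusp1 was 0.57 ± 0.22 higher and missed the test on its unadjusted p (limma adjusted p = 0.0463).

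For Fos, the AP-1 subunit, irradiated young mice had 1.15 to 2.25 (median 1.69) and unirradiated ones 1.23 to 3.01 (median 2.11), with a difference of -0.41 whose 95% interval ran from -1.11 to 0.29. The log2 differences of Junb (-0.04, 95% interval -0.61 to 0.54), Ier2 (0.12, -0.51 to 0.75) and Nr4a1 (-0.34, -0.99 to 0.31) did not pass the test either. Egr1 gave -0.27 ± 0.19 (exact permutation test over 924 splits, two-sided, p = 0.175). Fos and Jun can form a dimer, and their estimates in young mice had opposite signs, with the Fos interval reaching above 0.

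Some of these calls depended on single mice. Atf3 and Egr2 passed whichever mouse was left out, with differences of 0.72 to 0.95 and 0.67 to 0.80. Both missed the test under the authors' values (limma adjusted p = 0.061 for Atf3 and 0.212 for Egr2), spike-in scaling (0.299 and 0.306) and 1 fit of 24 arrays (0.296 and 0.271). Atf3 also missed it under the background correction normexp (limma adjusted p = 0.235), where Egr2 was not tested. Neither did Jun pass under the authors' values (limma adjusted p = 0.0453, missed on its unadjusted p), spike-in scaling (0.198), normexp (0.0826) or 1 fit of 24 arrays. Jun missed the test without unirradiated mouse 1, 3, 4 or 6 or irradiated mouse 3 (0.75 to 0.79 in these fits), Fosb passed only when irradiated mouse 3 was left out (-0.66), and Dusp1 passed without unirradiated mouse 2 (0.70). Without the 4 young mice high in hepatocyte markers, Egr2 (0.77) and Jun (0.93) passed, and Atf3 (0.68, limma adjusted p = 0.0338) and Fosb (-0.37, limma adjusted p = 0.111) did not. With the slide as a random block 5 members passed, Dusp1 being added, where 49.8% of all genes passed. The slide that held 2 mice of each group gave 0.67 for Atf3, 0.81 for Egr2, 0.38 for Jun and -0.64 for Fosb. The other slides with young mice held mice of a single dose, so slide and irradiation cannot be told apart on them. Cell type markers moved as well: 8 of 8 B cell markers and 6 of 9 T cell markers were lower after irradiation, and 8 of 8 platelet markers, 8 of 9 macrophage markers and 3 of 10 neutrophil markers were higher. Their summed levels in unirradiated and irradiated young mice were 10.6 to 10.9 and 7.65 to 9.18 for B cells, 10.6 to 11.9 and 11.99 to 13.5 for neutrophils, and 5.71 to 8.87 and 9.61 to 11.6 for macrophages. The part of blood composition in the levels of the members was not tested.

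**Figure D2:**
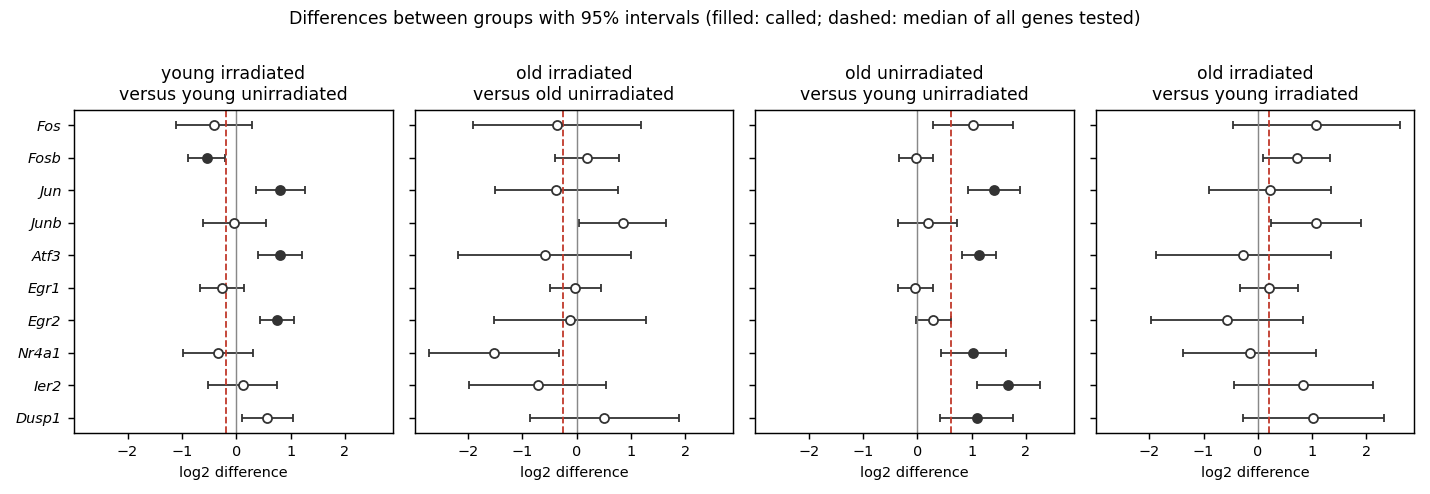
Log2 differences of the 10 members (x axis) in the 4 comparisons with 95% intervals, filled where the gene passed the test, with a dashed line at the median of all genes tested. In young mice Atf3, Jun and Egr2 lie above 0 and Fosb below it. The intervals that involve irradiated old mice are the widest for most members, and in unirradiated mice the median of all genes is itself shifted to 0.63.

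In old mice, 0 of 9 members passed the test of irradiated against unirradiated blood, where 24.9% of all genes tested passed (7.49% higher and 17.4% lower). At an unadjusted limma p under 0.05 were 2 of the 9 members, Nr4a1 and Junb, and 7979 of all 17805 genes tested, a larger share. The spread among irradiated old mice was large: the SD of Atf3 was 2.01, that of Fos 1.89 and that of Egr2 1.75, against 0.29, 0.62 and 0.28 in unirradiated old mice, while the median SD over all genes was 0.84 in irradiated and 0.34 in unirradiated old mice. The groups did not overlap for 0 of 9 members, against 22.5% of all genes (5.83% higher and 16.7% lower). The median log2 difference was -0.37 over the 9 members and -0.26 over all genes.

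Nr4a1, the orphan nuclear receptor of non-classical monocytes, ran from 7.21 to 8.49 (median 7.52) in unirradiated old mice and from 4.47 to 7.95 (median 6.40) in irradiated ones. Mice 4 and 6 (4.47 and 4.59) were the lowest and mouse 2 (7.95) lay within the unirradiated range. The difference of -1.52 ± 0.56 had a limma adjusted p of 0.0484 and missed the test on its unadjusted p. It passed without irradiated mouse 2 (-1.88, limma adjusted p = 0.015) and was -0.71 without mice 4 and 6 (limma adjusted p = 0.135). Junb, an AP-1 subunit, ran from 1.04 to 2.69 (median 1.64) without exposure and from 1.44 to 3.33 (median 2.78) after it. Irradiated mice 1, 4 and 6 exceeded every unirradiated old mouse, and the difference was 0.85 ± 0.37 (limma adjusted p = 0.0941).

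For Egr2, Atf3, Fos, Jun and Ier2 the sign of the difference depended on mice 4 and 6. In the 4 other irradiated old mice, Egr2 ran from 0.83 to 2.30, and in mice 4 and 6 it was -1.28 and -1.77. Its difference from unirradiated old mice was -0.12 over all 6 irradiated mice and 0.96 without these 2 (limma adjusted p = 0.0141), which passed the test. Atf3 was at -0.02 and -0.17 in mice 4 and 6 against 3.21 to 4.23 in the others, and Fos at 0.47 and 0.39 against 2.98 to 4.60. The estimates without mice 4 and 6 were 0.69 for Atf3, 0.80 for Fos, 0.47 for Jun, 1.44 for Dusp1 and 0.21 for Ier2, and none of these 5 passed. Fosb changed little (0.19 with and 0.15 without these mice). In the fit without them 34.4% of all genes passed, so that 1 of 9 members lay below that share.

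Dusp1 had the same split, with 3.86 and 3.65 in mice 4 and 6 and 5.35 to 7.41 in the others. Mice 4 and 6 lay below the unirradiated range of 4.36 to 6.33, mice 1, 2 and 5 above it and mouse 3 within it. Across the members, mice 4 and 6 lay below all 4 other irradiated old mice for 8 genes, and among them for Fosb and Junb. The mean differences of the 8 genes were -0.41 (Egr1) to -3.85 (Atf3). The share of all genes with this order was not counted, and these 2 arrays stood apart across all probes. Without the 3 irradiated old mice high in hepatocyte markers, which leaves mice 1, 4 and 6, Junb (1.40) and Nr4a1 (-2.28) passed, 2 of 9 where 40.3% of all genes did. On the slide with 2 irradiated mice (1 and 2) and 2 unirradiated ones, the differences were 2.23 for Dusp1, 1.28 for Fos, 0.90 for Jun and 0.02 for Nr4a1. The other slides with old mice held mice of a single dose, so slide and irradiation cannot be told apart on them. Irradiated mice 4 and 6 shared a slide with irradiated mice 3 and 5. Cell type markers differed between these groups too: 7 of 8 B cell markers were lower after irradiation, and 8 of 8 platelet, 8 of 9 endothelial and 11 of 12 hepatocyte markers tested were higher. Summed levels in unirradiated and irradiated old mice were 10.8 to 11.8 and 5.78 to 9.77 for B cells, 12.8 to 13.8 and 14.3 to 15.5 for platelets, 9.91 to 10.8 and 11.3 to 12.3 for endothelium, and 5.59 to 6.13 and 6.67 to 14.7 for hepatocytes, 12 of whose 18 listed markers were at background in every unirradiated old mouse. Their part in the levels of the members was not tested.

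**Figure D3:**
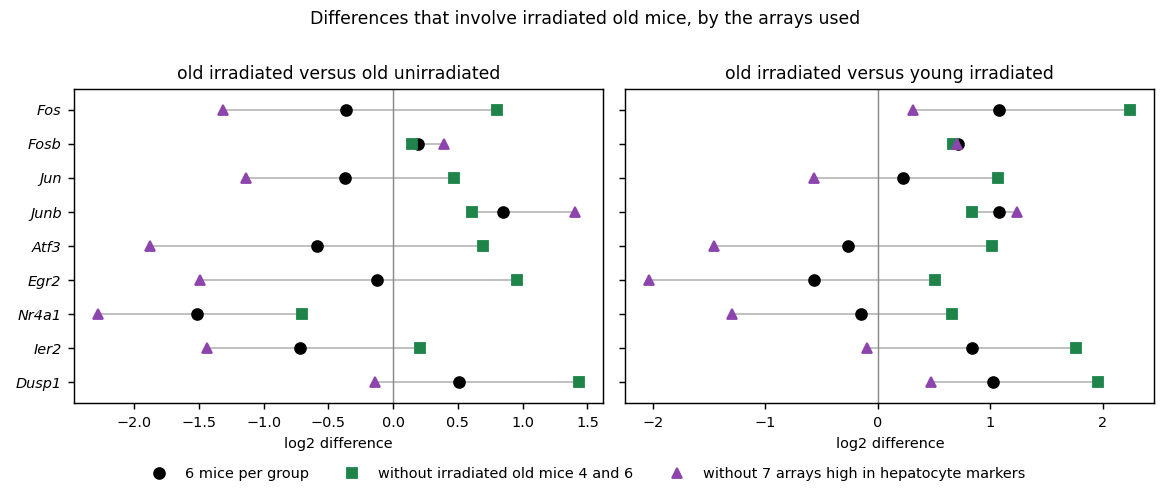
Log2 differences (x axis) of the 9 tested members for irradiated old mice against unirradiated old mice (left) and against irradiated young mice (right), with 6 mice per group (circles), without irradiated old mice 4 and 6 (squares) and without the 7 arrays high in hepatocyte markers (triangles). Fosb and Junb keep their sign in each of these settings, while Atf3 against unirradiated old mice runs from -1.88 to 0.69.

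Between unirradiated old and unirradiated young mice, Ier2, Jun, Atf3, Dusp1 and Nr4a1 were higher in old blood and no member tested was lower by the test. This is 5 of 9 members, all higher, where 63.9% of all genes tested passed (48.5% higher). The median of all genes was shifted by 0.63 in the same direction, and the 9 members had a median of 1.03. Differences beyond that shift were 1.05 for Ier2, 0.79 for Jun, 0.51 for Atf3, 0.46 for Dusp1 and 0.40 for Nr4a1. The scanning day was the same within each age and differed between the ages, and no slide held mice of both ages. Age, scanning day and slide thus cannot be told apart.

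Ier2, which encodes a nuclear protein of the immediate early class, ran from 0.35 to 1.79 (median 1.16) in young and from 2.31 to 3.19 (median 2.75) in old unirradiated mice. The groups did not overlap, with a difference of 1.68 ± 0.27 (limma adjusted p = 0.000125). Jun ran from 3.44 to 4.29 in young and from 4.69 to 5.70 (median 5.07) in old mice, again without overlap (1.42 ± 0.22, limma adjusted p = 0.000110). Atf3 moved from 1.78 to 2.02 in young mice to 2.71 to 3.42 in old mice (median 3.12), without overlap (1.14 ± 0.14, limma adjusted p = 2.77e-05). Groups without overlap and higher in old mice were found for these 3 of 9 members, against 37.6% of all genes tested, and lower in old mice for 0 of 9, against 11.1% (48.7% in either direction).

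Dusp1, the MAP kinase phosphatase, ran from 3.43 to 4.68 (median 4.03) in young and from 4.36 to 6.33 (median 5.06) in old mice, with overlap between the groups. Nr4a1 ran from 6.08 to 7.43 (median 6.54) in young and from 7.21 to 8.49 in old mice, where young mouse 2 (7.43) reached the old range. Their differences were 1.09 ± 0.31 and 1.03 ± 0.28 (limma adjusted p = 0.00565 and 0.00423). Fos was 1.03 ± 0.34 higher in old mice and missed the test on its unadjusted p (limma adjusted p = 0.0141). Egr1 (-0.04), Fosb (-0.03), Junb (0.19) and Egr2 (0.30) did not pass, and lay 0.33 to 0.66 below the median shift of all genes.

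These differences depended on how arrays were scaled. Scaled to the 75th percentile of each array, which left almost no shift in the median of all genes, Ier2 (1.16), Jun (0.90) and Atf3 (0.62) passed and Dusp1 (0.57) and Nr4a1 (0.51) did not. Under that scaling 37.3% of all genes passed. Of these called genes 28.9% were higher in old mice, against 75.9% with the median, and Egr2 and Junb changed sign (-0.22 and -0.33). Under spike-in scaling Jun alone passed (0.84), where 25.65% of all genes did. Under the authors' values (25.9% of all genes) and normexp (0%) 0 members did. Without single mice Dusp1 missed the test for 7 of the 12 mice (differences 0.84 to 1.24 over all 12) and Nr4a1 for 5 of 12 (0.87 to 1.19): unirradiated young mouse 1, 4, 5 or 6 or old mouse 2, 3 or 5 for Dusp1, and young mouse 3, 4 or 5 or old mouse 2 or 3 for Nr4a1. Fos passed without young mouse 2 (1.21). Summed monocyte markers were 8.94 to 9.67 in young and 9.77 to 10.8 in old unirradiated mice, and neutrophil markers 10.6 to 11.9 and 12.5 to 14.1, with 6 of 7 and 7 of 10 markers higher. In old mice 7 of 8 platelet and 4 of 8 B cell markers were also higher and 9 of 12 hepatocyte markers lower (median -2.92), and their part in these differences was not tested.

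Between irradiated old and irradiated young mice, 0 of 9 members passed, where 1.99% of all genes tested did. The groups did not overlap for 0 of 9 members, against 5.12% of all genes (4.52% higher and 0.601% lower). At an unadjusted limma p under 0.05 were 2 of the 9 members, Junb and Fosb, and 3802 of all 17805 genes tested, a similar share. Junb and Fosb had differences of 1.08 ± 0.38 (limma adjusted p = 0.134) and 0.71 ± 0.29 (limma adjusted p = 0.174). Without irradiated old mice 4 and 6, 5 members were higher in old mice and passed, Fos (2.25), Dusp1 (1.95), Ier2 (1.76), Jun (1.07) and Atf3 (1.02), and 28.4% of all genes passed in that fit. Fos in irradiated young mice ran from 1.15 to 2.25, and in these 4 old mice it was at least 2.98. Mice 4 and 6, which were set aside here, had 0.47 and 0.39, so over all 6 old mice the groups overlapped. The share of all genes without overlap among the mice kept was not counted.

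Whether irradiation was followed by unequal changes at the 2 ages was tested directly in 1 fit of 24 arrays. The test gave 0 of 9 members and 0 of 17805 genes (0%), with 4197 genes at an unadjusted limma p under 0.05 and a lowest adjusted p of 0.0604. The largest member differences, response in old minus response in young mice, were -1.40 ± 0.80 for Atf3 and -1.19 ± 0.59 for Jun. Those of Nr4a1 (-1.18 ± 0.66), Junb (0.89 ± 0.47) and Fosb (0.74 ± 0.31, limma adjusted p = 0.168) came next in size, apart from Egr2 and Ier2 at -0.86 and -0.84. One fit left out 4 of the arrays high in hepatocyte markers (unirradiated young mouse 5 and irradiated old mice 2, 3 and 5, the irradiated young ones being kept). The irradiated old mice left in it were 1, 4 and 6, so that mice 4 and 6 weigh heavily. In that fit 5 members passed, Atf3, Egr2 and Jun with a lower and Fosb and Junb with a higher response in old mice, and 5690 genes (32.0%) passed. Without all 7 such arrays, which leaves the same 3 irradiated old mice, Egr2 was the 1 that passed (-2.26), where 18.2% of all genes did. Without irradiated old mice 4 and 6, 0 members passed, where 0.152% of all genes did. The differences were then -0.12 for Atf3, 0.21 for Egr2 and 0.70 for Fosb.

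Members also differed between mice of 1 group, and some did so together. Over the 18 mice of the 3 groups other than irradiated old mice, deviations from the group mean were compared for 45 pairs of members, with permutations within groups. Fos and Dusp1 varied together most closely (Pearson r = 0.85, permutation p = 5e-05, adjusted p = 0.0011, Spearman rho = 0.87, permutation p = 9e-05, adjusted p = 0.002), and r was 0.80 without the 2 mice farthest from the median of Fos. Junb and Ier2 followed (r = 0.71, permutation p = 1e-05, the smallest that the permutations can give, adjusted p = 0.00045, rho = 0.74, permutation p = 3e-05, adjusted p = 0.0013, r = 0.66 without the 2 farthest). Egr1 and Egr2 were the third pair (r = 0.70, permutation p = 0.0014, adjusted p = 0.021, rho = 0.73, permutation p = 0.0015, adjusted p = 0.023, r = 0.61 without the 2 farthest). No other pair passed for both measures, and the median r over the 45 pairs was 0.15.

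**Figure D4:**
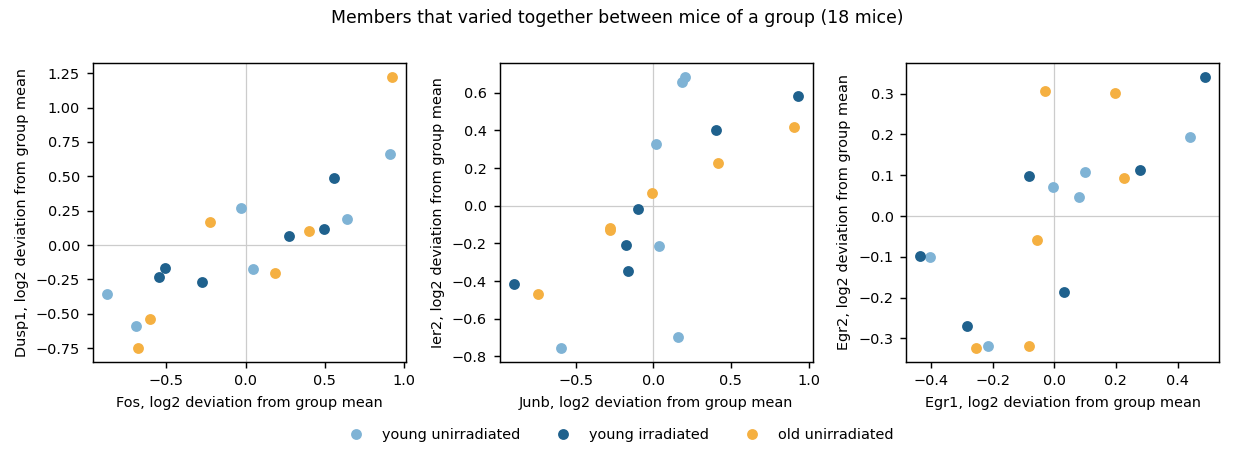
Deviations from the group mean (both axes, log2) of Fos and Dusp1, Junb and Ier2, and Egr1 and Egr2 in the 18 mice of the groups other than irradiated old mice, coloured by group. The points rise together in each panel, with r of 0.85, 0.71 and 0.70.

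The spread of members within groups ranged widely among all genes. In unirradiated young mice the SD of Fos (0.70) exceeded that of 91.7% of genes, that of Ier2 (0.65) exceeded 89.8%, and that of Atf3 (0.11) only 2.15%. In unirradiated old mice Dusp1 (0.70) and Fos (0.62) had SDs above those of 89.0% and 84.2% of genes, and Egr1 (0.18) above 14.1%. In irradiated young mice the SD of Fos (0.50) exceeded that of 57.4% of genes. Atf3 was thus the steadiest member in unirradiated young blood and, through mice 4 and 6, the most variable in irradiated old blood (93.5%).

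The genes most like each member in deviations from group means were named over all 24 arrays among genes well above background on each of them. Nr4a1 was most like Cx3cr1 (r = 0.98), the fractalkine receptor of non-classical monocytes, Ear2 (0.96) and Rnase2a (0.94), ribonucleases of the eosinophil-associated family, and over the 18 arrays without irradiated old mice Ear2 (0.96) and Cx3cr1 (0.95) were again the closest, in the opposite order, followed by Ace (0.93). Cx3cr1 and Ace are on the list of monocyte markers used above. Dusp1 was most like Adam8 (0.96), Nfil3 (0.96) and Tyrobp (0.95), with Adam8 (0.90) and Nfil3 (0.89) again among the 3 closest over 18 arrays. Fos was most like Mpeg1 (0.96), Tnfrsf1a (0.96) and Nfil3 (0.96), and Mpeg1 (0.88) remained over 18 arrays. The arrays share 1 scaling each, and the median r of all genes was 0.34 with Fos over 24 arrays and 0.03 over 18.

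For Jun (closest gene Plcg2, r = 0.96), Atf3 (Ppp4r1, 0.96) and Egr2 (Camk1d, 0.95), no gene among the 3 closest over 24 arrays remained so over 18. Ier2 kept 9530053H05Rik as the closest in both (0.97 and 0.92). Fosb was most like BC040756 (0.79), Pbld1 (0.76) and Tspan17 (0.76), the last of which also came up over 18 arrays (0.79), and Junb most like an unnamed probe, A_55_P2132039 (0.90), and Slain2 (0.87). Over 18 arrays the gene closest to Junb was Kcna3 (0.92), a potassium channel of lymphocytes.

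Lists of other genes of the same system were counted in the same fits, to be read against the shares of all genes given above for each comparison. Of 25 other immediate early genes tested (29 listed), 7 were higher and 3 lower in irradiated than in unirradiated young mice, with a median log2 difference of 0.07, where all genes had -0.20. Ier3, an early gene that modulates survival, rose by 1.76, Rhob, a small GTPase, by 1.22 and Plk3, a polo-like kinase, by 1.19. In old mice 1 of the 25, Cyr61, a matricellular protein gene chosen for mention after its value was seen, rose by 1.19, and 1 of the 25, the transcription factor gene Myc, fell by 1.76. Between unirradiated old and young mice 18 were higher and 1 lower, led by Ier3 (2.47), Socs3 (2.40), a brake on cytokine signalling, and Nfkbiz (1.63), against the shift of all genes of 0.63. In irradiated old against young mice 0 passed.

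Other AP-1 family genes gave 6 of 12 higher and 0 lower after irradiation in young mice, with a median of 0.58, above the -0.20 of all genes. Jdp2, which dimerises with Jun, rose by 1.39, and Maf, a basic leucine zipper factor, rose by 1.39. In old mice 1 of 12 was higher, Mafg, a small Maf protein, by 0.97, and between unirradiated ages 7 were higher and 1 lower, with Jdp2 at 1.65, Fosl2, a Fos relative, at 1.496 and Maf at 1.10. Batf2 was 1.38 lower in irradiated old than in irradiated young mice.

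Of 9 MAP kinase phosphatases and feedback inhibitors tested besides Dusp1 (15 listed), 5 were higher and 1 lower after irradiation in young mice and 2 higher and 1 lower in old mice. Spry1, an inhibitor of receptor kinase signalling, rose by 2.24 in young and 1.56 in old mice, and Dusp3 by 1.85 and 1.54. Dusp2, a phosphatase of lymphocytes, was 1.27 lower in irradiated old mice. Spry1, Dusp3 and Dusp16 were also higher in old than in young unirradiated mice (1.25, 1.11 and 1.05), where 4 of the 9 were higher.

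Of 13 serum response and CREB factors tested (16 listed), 0 were higher and 2 lower after irradiation at each age, where 21.1% of all genes were lower in young and 17.4% in old mice, so that these counts are not above the shares of all genes. Srf, serum response factor itself, fell by 0.88 in young mice and fell by 1.10 in old mice, Crtc2, a CREB coactivator, fell by 0.86 in young mice, and Crebbp, a histone acetyltransferase bound by CREB, fell by 1.02 in old mice. Between unirradiated ages 10 were higher and 2 lower, with Creb1 1.75 lower and Ep300 0.995 higher in old mice. Of 22 MAP kinase cascade genes tested (26 listed), 2 were higher and 2 lower in young mice and 1 higher and 3 lower in old mice. Mapk11, a p38 kinase, changed by -1.83 in young mice and by -2.51 in old ones, while Mapk14, another p38 kinase, rose by 1.01 in young mice, and Mapk12 fell by 3.81 in old mice. The lower calls in young mice also included Rps6ka5 (-1.44), a kinase of histones and CREB, and those in old mice Map2k1 (-1.47). In old against young unirradiated mice 20 of the 22 were higher, with a median of 0.90.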

How the data were processed

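Blood RNA of 24 mice was labelled with Cy3 and hybridised to 1-colour Agilent arrays. The authors scanned them and extracted spot intensities, deposited as the background-subtracted processed signal of Agilent Feature Extraction 12.0.2. A second file, the log2 values the authors had processed themselves (17190 probes, none for Fosb), was deposited too; its centring is not stated, its column medians were 5.77 to 6.73, and it served as an alternative. Of 44397 spots, 43020 were not controls (39429 probes). Log2 signals were centred on the array median, repeat spots were averaged, probes not significant over background, or non-uniform, on 25% of arrays or more were left out (24130 stayed, of 18737 genes), and probes that differed at least 1.5-fold from their own median in 20% of arrays were tested (17805 genes, the brightest probe of each). Each comparison of 6 with 6 mice was fitted with limma 3.58.1 in R 4.3.3 (p under 0.005 and Benjamini-Hochberg adjusted p under 0.05), and the unequal change between ages in 1 fit of 24 arrays. Fits were tested on simulated data. Exact permutation and correlation tests used SciPy 1.17.1 and NumPy 2.4.6. Correlations had been meant for 24 arrays and are given over 18, because irradiated old mice 4 and 6 form a separate cluster. Named genes were all members and, of each pathway list, up to 3 called genes with the largest difference per comparison among those above background in all 6 mice of a group, the 3 genes most like each member, and the brightest genes of each list, which are not described here because probes are not compared in level. One gene that this rule names is not reported here. The members and lists were chosen with earlier results of these data known. Alternatives covered scaling, background correction, filters, probe choice, variance model, blocks and left-out arrays. Added after the data were seen were the fits without the 7 arrays high in hepatocyte markers and without irradiated old mice 4 and 6, spike-in scaling, averaging of very similar arrays, and the 18-array correlations.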

Additional observations from a re-analysis of the deposited data

Results flagged for a closer look

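Among 40 sets of 6 mice (10 members in 4 groups), 2 held a mouse far from the others by Dixon's criterion, which chance meets in about 1 of 20 such sets. Fosb was 1.83 in unirradiated old mouse 3, and the next highest of that group was 1.36. Junb was 1.0 in unirradiated young mouse 5, and the next lowest was 1.61.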

How the results depend on the processing

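Counts of members that passed moved as follows, of 9 tested unless a filter or scaling changed that number (5 under the strict background filter, 6 under normexp, 10 under spike-in scaling). Fosb also went untested under the 75th percentile and under a median taken over probes above background on all arrays. Under the authors' values Egr1 was tested and Fosb was not. Percentages are the shares of all genes tested that passed in the same fit. For irradiated against unirradiated young mice (4, with 35.4%), the count was 0 under normexp (7.09%), the authors' values (21.8%), 1 fit of 24 arrays (22.4%) and spike-in scaling (17.2%). It was 2 under the replicate block (28.5%) and without the 7 arrays high in hepatocyte markers (35.0%). It was also 2 when a probe had to be above background on every array (44.5%). For unirradiated old against young mice (5, with 63.9%), it was 0 under normexp (0%) and the authors' values (25.9%), 1 under spike-in scaling (25.65%) and 2 in 1 fit of 24 arrays (34.9%). It was 3 under quantile normalization (38.3%), the 75th percentile (37.3%) and a median taken over probes above background on all arrays (36.5%). It was also 3 under the strict background filter (75.8%) and without the 4 or 7 arrays high in hepatocyte markers (60.7%). In old mice (0) it was 1 in the fit of 24 arrays, 1 without irradiated mice 4 and 6, and 2 without the 4 or 7 arrays, where 35.8%, 34.4% and 40.3% of all genes passed. For irradiated old against young mice (0) it was 2 in the fit of 24 arrays (14.4%), 2 without the 4 arrays (10.5%) and 5 without mice 4 and 6 (28.4%). For the unequal change between ages (0) it was 5 without the 4 arrays (32.0%) and 1 without the 7 (18.2%). Leaving out single mice gave 2 to 4, 3 to 6, 0 to 1, 0 to 0 and 0 to 0 members in this order. Without mice 4 and 6 the sign turned within old mice for Egr2 (0.96, which passed), Atf3, Fos, Jun and Ier2 (0.21 to 0.80), and between irradiated ages for Atf3 (1.02, which passed), Egr2 (0.51) and Nr4a1 (0.66).

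Over all genes, 6300 (young), 4429 (old), 11370 (unirradiated ages) and 355 (irradiated ages) passed. Under normexp 837, 8, 0 and 35 did, under the authors' values 3748, 2845, 4448 and 44, under the 75th percentile 5783, 3851, 5830 and 118, and in 1 fit of 24 arrays 3994, 6371, 6217 and 2569. Replicate numbers do not pair the mice (correlations of same-numbered mice ran from -0.60 to 0.58). The replicate block gave 2, 0, 4 and 0 members (28.5%, 19.5%, 58.2% and 0.0112% of all genes). Averaging very similar arrays gave 3, 0, 5 and 0 members (31.4%, 18.4%, 59.4% and 0.539% of all genes). Fosb then missed the test in young mice (-0.49, limma adjusted p = 0.0322). The cause of these changes was not tested. Precision is limited by 6 arrays per group and by dim spots. Over all 24 arrays, 43.9% to 64.4% of spots were well above background.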
